A study of Mus musculus with 12 samples.

Results

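The erythroid regulators described here are 8 mouse genes, Gata1, Klf1, Zfpm1, Nfe2, Gfi1b, Epor, Ldb1 and Tfrc, taken by symbol from the 43279 rows of a table of normalised read counts. All 8 were found in it, and all 8 passed the filter on low values described below, as 13358 genes did. Their levels were compared between Osmr-/- mice, which lack the receptor chain that binds oncostatin M, and wild-type (WT) C57BL/6 control mice. The question of the series is how a niche without this receptor alters blood stem cells, and since the genotype is that of the mouse, the sorted cells carry it too. No source used here gives the strain background of the Osmr-/- line. All mice were adult and naive, that is, untreated. The Osmr-/- group had 5 mice, numbered 1, 2, 3, 5 and 6 in the labels, and the WT group had 6, numbered 1 to 6; the Osmr-/- sample numbered 4 was not analysed here. From each mouse, 1000 cells were sorted from the marrow of femur, tibia and ilium by surface KIT and SCA1 and by lack of FLT3, CD48 and lineage markers, a gate that holds long-term and short-term repopulating stem cells. The lineage cocktail included TER119, so TER119-positive erythroid cells were removed. Each mouse gave 1 SMART-Seq v4 library of polyadenylated RNA, made with 13 to 18 PCR cycles. The spread between libraries therefore holds both the spread between mice and that of sorting and library preparation, which cannot be told apart.

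Red cells arise from stem cells through megakaryocyte and erythroid progenitors, and a small set of nuclear proteins drives that path. GATA1, a zinc-finger factor, takes over from GATA2 at shared sites on DNA as erythroid cells form, and acts there with its cofactor FOG1, the product of Zfpm1. LDB1 bridges GATA1 to TAL1 and LMO2 and draws distant enhancers to promoters. KLF1 binds CACCC-type sequences in globin and many other erythroid genes, GFI1B represses with the LSD1-CoREST complex, and NFE2 is the larger subunit of a dimer with small MAF proteins that acts in megakaryocytes and erythroid cells. The erythropoietin receptor (Epor) keeps erythroid progenitors alive, and the transferrin receptor (Tfrc) brings in iron for heme and for dividing cells in general.

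Short stretches upstream of 4 of the genes are shown because the sites that GATA1 and KLF1 read lie in regions of this kind, and because these genes had the 4 lowest log2 fold changes of the 8. They come from RefSeq on GRCm38.p6, each is read 5′ to 3′ on the gene's strand, and positions are counted back from the RefSeq start. Capitals mark matches on either strand to a GATA motif (AGATAA or AGATAG or TGATAA or TGATAG) or to a CACCC-type motif (CCNCNCCC), and touching or overlapping matches run together.
Gata1, chrX:7967911-7968060, minus strand: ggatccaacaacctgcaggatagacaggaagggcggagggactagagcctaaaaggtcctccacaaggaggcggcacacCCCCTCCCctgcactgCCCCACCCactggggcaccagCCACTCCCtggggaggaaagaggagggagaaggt
Klf1, chr8:84901832-84901927, plus strand, ending before the first annotated exon: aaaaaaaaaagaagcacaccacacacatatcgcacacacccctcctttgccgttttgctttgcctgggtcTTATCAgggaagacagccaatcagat
Gfi1b, chr2:28621983-28622132, minus strand: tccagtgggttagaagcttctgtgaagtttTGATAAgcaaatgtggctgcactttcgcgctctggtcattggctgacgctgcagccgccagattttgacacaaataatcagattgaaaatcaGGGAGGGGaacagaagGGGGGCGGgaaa
Epor, chr9:21963577-21963726, minus strand: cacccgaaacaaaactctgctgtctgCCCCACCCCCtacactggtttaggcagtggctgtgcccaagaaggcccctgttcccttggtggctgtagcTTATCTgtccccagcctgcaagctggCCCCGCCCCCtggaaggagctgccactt

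RefSeq promoters were matched for 7 of the 8 genes, in 10 windows of 250 bases before a start; Nfe2 had no entry. A GATA motif lay in 4 of the 10 windows, one each for Klf1, Gfi1b, Epor and Ldb1, while 26.5% of all 32851 promoter windows of that length held one. The match in Klf1 spans positions -80 to -75, that in Gfi1b -120 to -115 and that in Epor -54 to -49. A CACCC-type motif lay in 9 of the 10 windows, in every matched gene except Klf1, against 45.9% of all windows. The windows are not independent, since Ldb1 gave 3 of them and Tfrc 2 that overlap. This motif is mostly C, and the share of G and C in the windows ran from 44.4 to 76%. The shares were not compared at equal G and C content. The NFE2 motif TGAGTCA lay in none of the 10, and in 4.46% of all windows. These are matches of letters within short windows, and binding was not measured.

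Reads counted in genes came to between 9.50 and 11.2 M (mega) per Osmr-/- library and between 9.89 and 22.1 M per WT library, with WT 1 the deepest. Genes with at least 1 read numbered 15651 to 16348 in the Osmr-/- libraries and 16508 to 18797 in the WT libraries, so that measure did not overlap. Osmr had 4 reads over the Osmr-/- libraries and 13 over the WT libraries, too few to check the genotype labels. Kit averaged 4455 ± 579 normalised counts in Osmr-/- cells (SD, n = 5) and 3740 ± 460 in WT cells (SD, n = 6). Ly6a, which encodes SCA1, averaged 6893 ± 1837 in Osmr-/- cells (SD, n = 5) and 5376 ± 1470 in WT cells (SD, n = 6). Transcripts of Cd48 and Flt3, whose products the sort selected against, were also counted. Cd48 averaged 853 ± 355 in Osmr-/- cells (SD, n = 5) and 637 ± 429 in WT cells (SD, n = 6). Flt3 averaged 389 ± 148 in Osmr-/- cells (SD, n = 5) and 504 ± 164 in WT cells (SD, n = 6). These transcript counts do not test the surface gate. A second pattern followed the label numbers, with 348 genes higher and 626 lower in libraries numbered 4 to 6 than in those numbered 1 to 3 (limma, genotype in the model, adjusted p under 0.05). The labels name no batch, and both genotypes are in each set. The split came from earlier work on these data, so these counts are not a separate test of it.

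All 8 regulators had lower fitted levels in Osmr-/- than in WT cells, with log2 fold changes (Osmr-/- over WT, on log2(normalised count + 1)) between -4.17 and -0.26 and a median of -1.23. Among all 13358 tested genes the median was -0.05, and 53.2% lay below 0. With limma and Benjamini-Hochberg adjustment over all tested genes at a threshold of 0.05, 0 of the 8 were called lower, where 0.015% of all genes were; their adjusted p-values ran from 0.0801 for Klf1 to 0.604 for Tfrc. At an unadjusted p under 0.05, 6 of the 8 were lower, where 10.5% of tested genes were. The 8 were chosen with earlier results of these data known, so counts of them beside such shares are not a separate test. In the authors' deposited table, which compares the same libraries with DESeq2, 4 of the 8 (Klf1, Nfe2, Gfi1b and Gata1) had an adjusted p under 0.05 and were lower, where 2.79% of its 13802 genes with an adjusted p were. DESeq2 run again on the recovered reads called the same 4 (2.83% of genes lower), and edgeR's quasi-likelihood test called 0 of the 8 (0.00749% of genes lower). Limma was also run with the number sets, a split known from earlier work on these data. It then called 3 of the 8 lower (Nfe2, Klf1 and Gata1), against 1.53% of genes. Signs of RNA quality also varied: the share of counts from mitochondrial genes was 7.12 to 8.22% in Osmr-/- libraries and 3.91 to 8.85% in WT libraries, and the nuclear RNA Malat1 had 72916 to 173014 normalised counts in Osmr-/- libraries and 9975 to 230983 in WT libraries. WT 1 and WT 2, the highest WT libraries for Gata1, Nfe2 and Gfi1b, had the lowest of both, with 3.91 and 4.19% mitochondrial counts and Malat1 at 9975 and 34784. The part of these measures in the differences was not tested. In sorted bulk cells, fewer cells of a kind and less RNA per cell cannot be told apart.

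**Figure D1:**
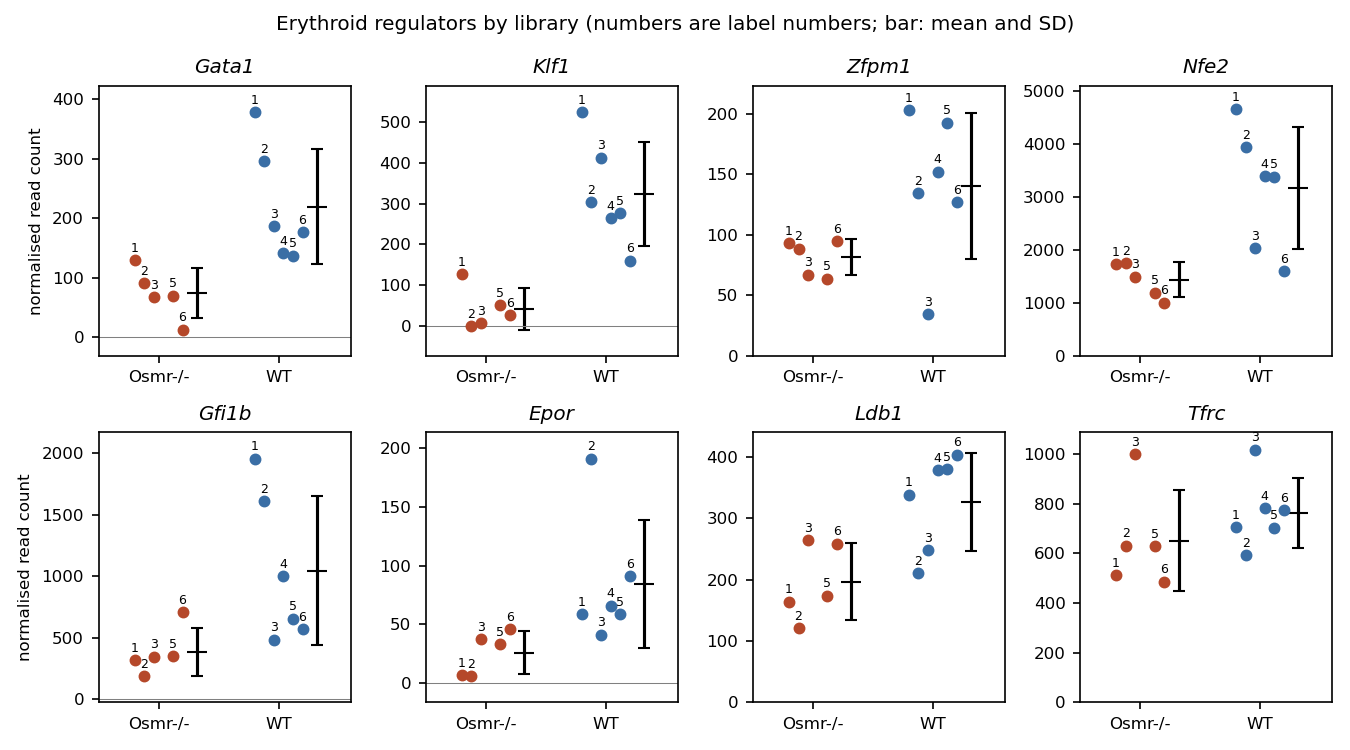
Normalised read counts (linear vertical axes, 1 panel per gene) of the 8 regulators in each Osmr-/- library (red, n = 5) and each WT library (blue, n = 6), marked with label numbers; the bar beside each group gives the mean and SD. The groups do not overlap for Gata1 and Klf1, and they overlap for the other genes, for Zfpm1 with all 5 Osmr-/- libraries inside the WT range.

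Gata1 (chromosome X from 7959260 to 7978071, minus strand, GRCm38) was lower in every Osmr-/- library than in any WT library. Osmr-/- 1, 2, 3, 5 and 6 had 129, 91.1, 67.0, 70.0 and 12.7 normalised counts, and the WT libraries ran from 137 (WT 5) through a median of 182 to 378 (WT 1). The lowest value, in Osmr-/- 6, rests on 13 reads. The means were 74.0 ± 42.3 in Osmr-/- cells (SD, n = 5) and 219 ± 96.7 in WT cells (SD, n = 6), a log2 fold change of -1.77 ± 0.544 (SE) and a limma adjusted p of 0.138. Of all tested genes, 1.42% had every Osmr-/- library below every WT library, and 2 of the 8 regulators did. The difference between label numbers 4 to 6 and 1 to 3 was -1.18 for Gata1 (log2, genotype in the model, limma adjusted p 0.131), and with that term the genotype difference was -1.88 at a limma adjusted p of 0.0474. The log2 difference was -1.56 within numbers 1 to 3 and -2.28 within numbers 4 to 6. The authors' deposited table gives -1.23 (turned to Osmr-/- over WT, as are all its values here), with an adjusted p of 0.0388.

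Zfpm1 (chromosome 8 from 122282141 to 122337251, plus strand), whose product FOG1 binds the amino-terminal finger of GATA1, did not separate the groups. Osmr-/- 1, 2, 3, 5 and 6 had 92.9, 88.7, 67.0, 63.8 and 94.7 normalised counts. The WT libraries ran from 34.3 (WT 3) through a median of 143 to 203 (WT 1). The 5 Osmr-/- libraries lay above WT 3 and below the other 5 WT libraries, of which the lowest, WT 6, had 127. The means were 81.4 ± 14.8 in Osmr-/- cells (SD, n = 5) and 141 ± 60.4 in WT cells (SD, n = 6), and the fit gave a log2 fold change of -0.61 ± 0.475 (SE) and a limma adjusted p of 0.518. The log2 difference was -0.25 within numbers 1 to 3 and -0.99 within numbers 4 to 6. Zfpm1 overlaps Gm20388, annotated on the same strand and at 0 counts in every library, so reads of the shared stretch may have been left out by the counting. Without WT 3 the log2 fold change was -0.98 and the limma adjusted p 0.194.

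Ldb1 (chromosome 19 from 46031570 to 46045214, minus strand), the bridging subunit, had 164, 121, 264, 174 and 259 normalised counts in Osmr-/- 1, 2, 3, 5 and 6. The WT libraries ran from 210.2 (WT 2) through a median of 358 to 403 (WT 6), so Osmr-/- 3 and 6 lay inside the WT range and the other 3 below it. The log2 fold change was -0.75 ± 0.314 (SE), at a limma adjusted p of 0.238, from means of 196 ± 62.7 in Osmr-/- cells (SD, n = 5) and 326 ± 79.0 in WT cells (SD, n = 6). The log2 difference was -0.58 within numbers 1 to 3 and -0.86 within numbers 4 to 6. Ldb1 overlaps Pprc1 on the opposite strand (mean of 255 normalised counts over all libraries), and since no source used here gives the strand setting of the counting, its count is uncertain.

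Klf1 (chromosome 8 from 84901928 to 84905291, plus strand), the CACCC-binding activator, had the largest log2 difference of the 8. Osmr-/- 1, 2, 3, 5 and 6 had 127, 0, 6.44, 50.4 and 27.3 normalised counts, and the WT libraries ran from 160.3 (WT 6) through a median of 290.0 to 524 (WT 1). No Osmr-/- library reached the lowest WT library, and in Osmr-/- 2 no read was counted, which allows up to 3 reads or 3.55 normalised counts. The means were 42.2 ± 51.3 in Osmr-/- cells (SD, n = 5) and 323 ± 127 in WT cells (SD, n = 6). The log2 fold change of -4.17 (standard error 0.944, limma adjusted p 0.0801) ranked 79 by p among all tested genes. It depends on the pseudocount, since 2 Osmr-/- libraries were near 0, and was -3.17 at a pseudocount of 10, where the limma adjusted p was 0.0466. It was -3.14 without Osmr-/- 2 and -4.89 without Osmr-/- 1, the ends of the range when each library was left out (limma adjusted p 0.0562 to 0.191). Within numbers 1 to 3 it was -5.36 and within numbers 4 to 6 it was -2.58, and the authors' deposited table gives -1.70 with an adjusted p of 0.0142.

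Gfi1b (chromosome 2 from 28609450 to 28621982, minus strand), which encodes a zinc-finger repressor needed for erythroid and megakaryocytic cells, had 316, 187, 345, 348 and 709 normalised counts in Osmr-/- 1, 2, 3, 5 and 6. The WT libraries ran from 485 (WT 3) through a median of 827 to 1957 (WT 1). Osmr-/- 6 lay inside the WT range and the other 4 below it. The log2 fold change was -1.39 ± 0.404 (SE), at a limma adjusted p of 0.129, from means of 381 ± 195 in Osmr-/- cells (SD, n = 5) and 1046 ± 608 in WT cells (SD, n = 6). It was -2.07 within numbers 1 to 3 and -0.53 within numbers 4 to 6, and the difference between the sets of 1.54 had an unadjusted p of 0.0598 and an adjusted p of 0.521 (limma interaction term). The authors' deposited table gives -1.20 with an adjusted p of 0.0289.

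Nfe2 (chromosome 15 from 103248212 to 103258403, minus strand) had the highest level of the 8 per length of transcript in both groups. Osmr-/- 1, 2, 3, 5 and 6 had 1736, 1751, 1498, 1193 and 1007 normalised counts, and the WT libraries ran from 1604 (WT 6) through a median of 3389 to 4659 (WT 1). Osmr-/- 3, 5 and 6 lay below the lowest WT library, and Osmr-/- 1 and 2 lay between WT 6 and the next, WT 3. The means were 1437 ± 330.3 in Osmr-/- cells (SD, n = 5) and 3168 ± 1154 in WT cells (SD, n = 6), and the fit gave a log2 fold change of -1.08 ± 0.281 (SE) and a limma adjusted p of 0.105. Without WT 6 it was -1.26 with a limma adjusted p of 0.0399. The difference was alike in size in both number sets, at -1.01 in the lower numbers and -1.27 in the upper. The authors' deposited table gives -1.04 with an adjusted p of 0.0100.

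Epor (chromosome 9 from 21958897 to 21963506, minus strand), the receptor that signals through JAK2 and STAT5, had low counts. Osmr-/- 1, 2, 3, 5 and 6 had 6.80, 5.91, 37.4, 32.9 and 45.9 normalised counts, the first pair from 6 and 5 reads, and the WT libraries ran from 41.3 (WT 3) through a median of 62.4 to 191 (WT 2). Osmr-/- 6 lay just above WT 3, and the other 4 Osmr-/- libraries lay below every WT library. The means were 25.8 ± 18.3 in Osmr-/- cells (SD, n = 5) and 84.4 ± 54.6 in WT cells (SD, n = 6), and the fit gave a log2 fold change of -1.90 ± 0.675 (SE) and a limma adjusted p of 0.175. The difference was -2.62 within numbers 1 to 3 and -0.84 within numbers 4 to 6. In the authors' deposited table it was -1.20 with an adjusted p of 0.0817.

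Tfrc (chromosome 16 from 32608920 to 32632794, plus strand) had the smallest difference of the 8. Osmr-/- 1, 2, 3, 5 and 6 had 513, 631, 1000.1, 629 and 487 normalised counts, and the WT libraries ran from 593 (WT 2) through a median of 740.0 to 1019 (WT 3). Library 3 was the highest in both genotypes, and the ranges overlapped over most of their length. The log2 fold change was -0.26 with a 95% confidence interval from -0.77 to 0.25 and a limma adjusted p of 0.604, from means of 652 ± 205 in Osmr-/- cells (SD, n = 5) and 763 ± 143 in WT cells (SD, n = 6). It was -0.13 within numbers 1 to 3 and -0.44 within numbers 4 to 6.

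**Figure D2:**
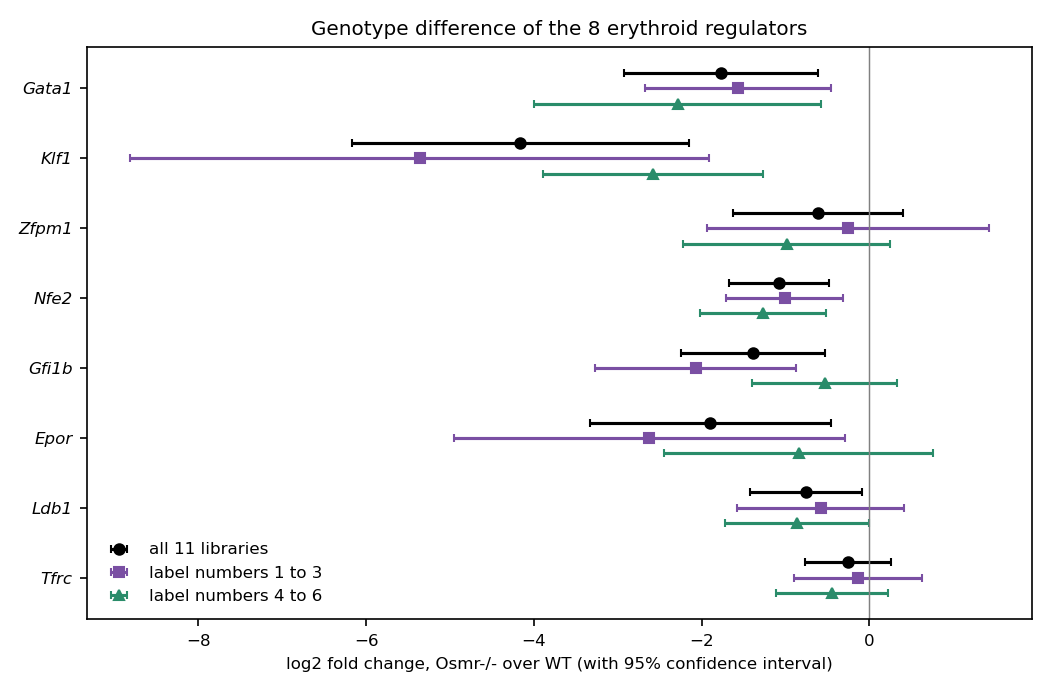
Log2 fold change, Osmr-/- over WT, of each regulator with its 95% confidence interval (horizontal bars), from all 11 libraries (black circles), from label numbers 1 to 3 (purple squares) and from label numbers 4 to 6 (green triangles). All 24 estimates lie below 0, from -5.36 for Klf1 in numbers 1 to 3 to -0.13 for Tfrc in the same set.

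Within both number sets all 8 regulators lay below 0, with medians of -1.29 in numbers 1 to 3 (3 Osmr-/- and 3 WT libraries) and -0.93 in numbers 4 to 6 (2 Osmr-/- and 3 WT libraries). No library was high or low for all of them. WT 1 was the highest WT library for 5 (Gata1, Klf1, Zfpm1, Nfe2 and Gfi1b); it was also the deepest library and had the most genes with a read, and the part of depth in these values was not tested. Without WT 1 the log2 fold changes of all 8 stayed below 0. Osmr-/- 2 was the lowest Osmr-/- library for 4 (Klf1, Gfi1b, Epor and Ldb1). Osmr-/- 6 was the lowest for 3 (Gata1, Nfe2 and Tfrc) and the highest for another 3 (Zfpm1, Gfi1b and Epor). The spread within a group was widest for Klf1 in Osmr-/- cells, with an SD of 121% of the mean against 39.3% in WT cells, and Zfpm1 had 18.2% in Osmr-/- cells against 43.0% in WT cells.

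Levels can be set side by side between genes only per length, here as normalised counts per kilobase of annotated exon (GENCODE M21). In Osmr-/- cells the order of the mean levels per kilobase was Nfe2 (481 ± 111), Gfi1b (208 ± 107), Tfrc (105 ± 33.2), Ldb1 (42.6 ± 13.6), Gata1 (30.3 ± 17.3), Klf1 (27.6 ± 33.5), Zfpm1 (23.2 ± 4.23) and Epor (13.0 ± 9.22), each with its SD (n = 5). In WT cells it was Nfe2 (1060 ± 386), Gfi1b (572 ± 332), Klf1 (211 ± 83.1), Tfrc (123 ± 23.0), Gata1 (89.9 ± 39.7), Ldb1 (70.8 ± 17.2), Epor (42.4 ± 27.4) and Zfpm1 (40.1 ± 17.2) (SD, n = 6). Neighbours in this order had overlapping ranges over libraries, except Tfrc and Ldb1 in Osmr-/- cells, where the lowest Tfrc level was 78.7 and the highest Ldb1 level 57.4. Klf1 stood next to Gata1 and Zfpm1 in Osmr-/- cells and between Gfi1b and Tfrc in WT cells.

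The balance of GATA1 and GATA2 transcripts was lower on average in Osmr-/- cells, and its test result depended on single libraries and on the processing. Gata2, which encodes the stem cell and early progenitor GATA factor, had 833 ± 290.2 normalised counts in Osmr-/- cells (SD, n = 5) and 893 ± 303 in WT cells (SD, n = 6), and a log2 fold change of -0.09 and a limma adjusted p of 0.904. The log2 ratio of Gata1 to Gata2 was -2.59, -3.00, -2.81, -3.65 and -6.54 in Osmr-/- 1, 2, 3, 5 and 6. The WT values were -1.26, -1.14 and -1.33 in WT 1 to 3 and -2.88, -2.79 and -2.90 in WT 4 to 6. Within numbers 1 to 3 and within numbers 4 to 6 every Osmr-/- library was below every WT library, while over all libraries the groups overlapped. The mean difference was -1.67, with an exact two-sided permutation p of 0.0498 over all 462 ways to assign the 11 libraries to the groups (means of -3.72 ± 1.63 in Osmr-/- cells, SD, n = 5, and -2.05 ± 0.890 in WT cells, SD, n = 6). Without Osmr-/- 6 it was -0.97 with an exact permutation p of 0.0952. The exact permutation p was also above 0.05 without any single one of Osmr-/- 2, 3 or 5 or WT 1, 2, 3 or 5, and reached 0.103. Within the sets it was -1.56 and -2.24, each at p = 0.1 by exact permutation, which is the smallest p that sets of this size allow.

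**Figure D3:**
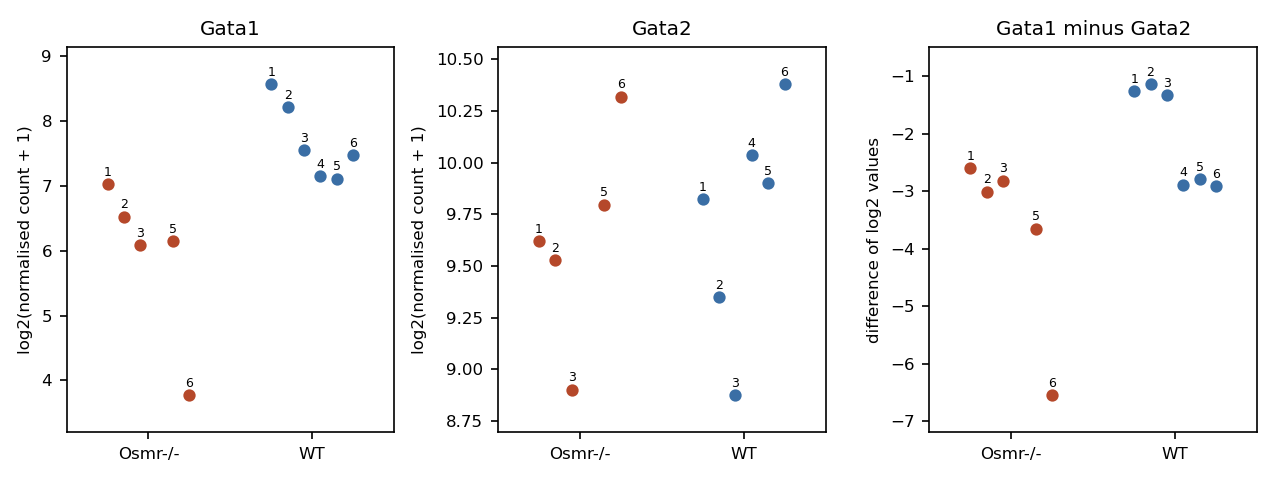
Log2(normalised count + 1) of Gata1 (left) and Gata2 (middle) and their difference (right) in each Osmr-/- library (red, n = 5) and WT library (blue, n = 6), marked with label numbers. Gata2 covers the same range in both groups, and the difference is lower in Osmr-/- than in WT libraries of the same number set, with Osmr-/- 6 lowest at -6.54.

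The genes whose levels over the 11 libraries were most like Gata1 were Use1 (Pearson r 0.967, Spearman rho 0.936), Kif23 (r 0.960, rho 0.882), Ngdn (r 0.960, rho 0.882), Hes6 (r 0.954, rho 0.855) and Dgcr6 (r 0.950, rho 0.991). Those most like Klf1 were 1700037H04Rik (r 0.958, rho 0.809), Ncstn (r 0.947, rho 0.873), Brap (r 0.945, rho 0.936), Rpap2 (r 0.943, rho 0.891) and Sumf2 (r 0.941, rho 0.873). These are the highest values out of 13358 genes and carry no test, and the libraries share genotype, depth and number set. Kif23 encodes a kinesin of cell division, and Hes6 a basic helix-loop-helix factor of the HES family. Among the other regulators, Nfe2 was most like Gata1 (r 0.80, n = 11, rank 369 of all genes) and Gfi1b most like Klf1 (r 0.73, n = 11, rank 461). Gata1 and Klf1 correlated at 0.57 over the 11 libraries and at 0.02 after the genotype means were taken out. With those means taken out, Gata1 and Nfe2 correlated at 0.56, and Klf1 and Gfi1b at 0.40. These were the highest such values of Gata1 and of Klf1 with another regulator. The lowest were -0.57 for Gata1 and Ldb1 and -0.33 for Klf1 and Tfrc, and Gata1 and Epor had -0.44. The differences between the number sets were not taken out.

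Genes that work with the regulators were examined in lists. All lists here and below were also chosen with earlier results of these data known, so their counts are not a separate test. Of 17 tested partners and antagonists of GATA factors and the TAL1 (SCL) complex, 5 lay below 0 and 12 above, the median log2 fold change was 0.16 (0.43 in label numbers 1 to 3, 0.05 in 4 to 6), and limma called 0 in either direction (0.00749% of all tested genes were called higher). At an unadjusted p under 0.05, 5 of the 17 were higher and 0 lower, where 7.5% of all tested genes were higher and 10.5% lower, and the authors' deposited table called 0. The 2 of lowest p were Erg, an ETS factor of stem cells and megakaryocytes, with 607 ± 64.1 normalised counts in Osmr-/- cells (SD, n = 5) and 355 ± 142 in WT cells (SD, n = 6; log2 0.86, limma adjusted p 0.156), and Myb, a factor of proliferating progenitors (log2 0.82, limma adjusted p 0.137). Spi1, which encodes the GATA1 antagonist PU.1, averaged 435 ± 202 in Osmr-/- cells (SD, n = 5) and 766 ± 397 in WT cells (SD, n = 6), with a limma adjusted p of 0.322. Of 12 other erythroid transcription factors, 7 lay below 0 and 5 above (median -0.08; 0.01 in each number set), led by the fetal globin repressor Bcl11a at 0.50 and E2f4 at -0.96. Limma and the authors' deposited table called 0 of them, and 1, E2f4, was lower at an unadjusted p under 0.05.

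Among complexes that the regulators recruit, 8 of 13 tested NuRD subunits, which bind FOG1, lay below 0 (median -0.26; -0.35 in numbers 1 to 3, -0.25 in 4 to 6). Limma called 0 of them, and 4 of the 13 were lower at an unadjusted p under 0.05, where 10.5% of all tested genes were. The authors' deposited table called 1 lower, where 2.79% of its genes were, namely Mbd3, at -1.11 with an adjusted p of 0.0170; Mta3 had -0.95 with a limma adjusted p of 0.173. Of 6 tested LSD1-CoREST genes, 2 lay below 0 and 4 above (median 0.06; 0.15 in numbers 1 to 3, -0.02 in 4 to 6), with Hmg20b at -0.69 and Rcor3 at 0.40; none passed limma, an unadjusted p under 0.05 or the authors' deposited table. Of 8 partners and relatives of NFE2, 4 lay on each side of 0 (median -0.13; -0.13 in numbers 1 to 3, 0.01 in 4 to 6). Limma called 0, and at an unadjusted p under 0.05, 1 of the 8 was higher (Bach2; 7.5% of all genes) and 1 lower (Keap1; 10.5%). Bach2, whose product pairs with small MAF proteins as NFE2 does, averaged 427 ± 131 normalised counts in Osmr-/- cells (SD, n = 5) and 188 ± 48.5 in WT cells (SD, n = 6). Its log2 fold change was 1.17 with a limma adjusted p of 0.105, and every Osmr-/- library lay above every WT library, as for 1.09% of tested genes. The authors' deposited table called Bach2 higher, at 1.08 with an adjusted p of 0.00385, where 1.67% of its genes were called higher; Keap1 had -1.07 in limma with an adjusted p of 0.234.

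Downstream of the 2 receptors, 13 of 19 tested genes of erythropoietin receptor signalling lay below 0 and 6 above (median -0.18; -0.04 in numbers 1 to 3, -0.16 in 4 to 6). Limma called 0, and at an unadjusted p under 0.05, 3 of the 19 were higher (7.5% of all genes) and 2 lower (10.5%). Socs2, a feedback inhibitor induced by STAT5, averaged 1014 ± 397 in Osmr-/- cells (SD, n = 5) and 503 ± 83.9 in WT cells (SD, n = 6). The adaptor gene Grb2 averaged 393 ± 139 in Osmr-/- cells (SD, n = 5) and 701 ± 96.5 in WT cells (SD, n = 6). The limma adjusted p-values were 0.134 for Socs2 and 0.131 for Grb2, and the authors' deposited table called both, Socs2 higher at 0.93 (adjusted p 0.0199) and Grb2 lower at -0.78 (adjusted p 0.0388), where it called 1.67% of its genes higher and 2.79% lower. Of 20 genes of iron uptake and its control, 10 lay on each side of 0 (median 0.09; -0.20 in numbers 1 to 3, 0.20 in 4 to 6). Limma called 0, and at an unadjusted p under 0.05, 3 of the 20 were higher (7.5% of all genes) and 4 lower (10.5%). Glrx5, which encodes a glutaredoxin of mitochondrial iron-sulfur cluster assembly, averaged 1070.1 ± 518 in Osmr-/- cells (SD, n = 5) and 2872 ± 635 in WT cells (SD, n = 6), without overlap (log2 fold change -1.56, limma adjusted p 0.0706). The mitochondrial iron importer gene Slc25a28 had -1.09 with a limma adjusted p of 0.176, and the authors' deposited table called Glrx5 and Slc25a28 lower, with adjusted p-values of 0.00409 and 0.0127, where 2.79% of its genes were called lower.

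Genes of later erythroid cells, such as those of the red cell membrane, heme synthesis and globins, made up the list with the lowest median. Of 35 listed, 32 were found and 26 tested; 23 lay below 0 and 3 above. Their median was -1.64, and it was -2.07 within numbers 1 to 3 and -0.96 within numbers 4 to 6. Rhd, which encodes a Rhesus blood group protein, fell in Osmr-/- cells to 8.75 ± 17.3 normalised counts (SD, n = 5), against 273 ± 197 in WT cells (SD, n = 6), and it was the 1 gene of the list that limma called (log2 -6.05, SE 0.938, adjusted p 0.0454). At an unadjusted p under 0.05, 17 of the 26 were lower, where 10.5% of all tested genes were, and 1 was higher, where 7.5% were. Limma called no gene lower without Osmr-/- 2, or without any single one of WT 1 to 5. Alad, which encodes the second enzyme of heme synthesis, averaged 304 ± 200.05 in Osmr-/- cells (SD, n = 5) and 1451 ± 486 in WT cells (SD, n = 6) (log2 fold change -2.51 and a limma adjusted p of 0.0640). The authors' deposited table called 9 of the list lower and 1 higher, where 2.79% of its genes were lower and 1.67% higher. The 1 higher gene, named after its values were seen, was the beta-globin gene Hbb-bt, at 1162 ± 390 in Osmr-/- cells (SD, n = 5) and 316 ± 208 in WT cells (SD, n = 6), with a limma adjusted p of 0.0640; it is a near copy of Hbb-bs, between which short reads may be split. The summed level of the list was 15099 to 22324 normalised counts in Osmr-/- libraries and 24324 to 68526 in WT libraries, without overlap. This sum mostly reflects Car2 and Car1, which had the highest means of the list in both groups. Car2 averaged 11416 ± 2174 in Osmr-/- cells (SD, n = 5) and 26493 ± 12704 in WT cells (SD, n = 6). Car1 averaged 1284 ± 924 in Osmr-/- cells (SD, n = 5) and 8168 ± 7968 in WT cells (SD, n = 6). The part of the summed level in the values of the 8 regulators was not tested. The late genes Slc4a1, Alas2 and Trim58 had 1, 2 and 1 reads over the 5 Osmr-/- libraries and 14, 34 and 2 over the 6 WT libraries.

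**Figure D4:**
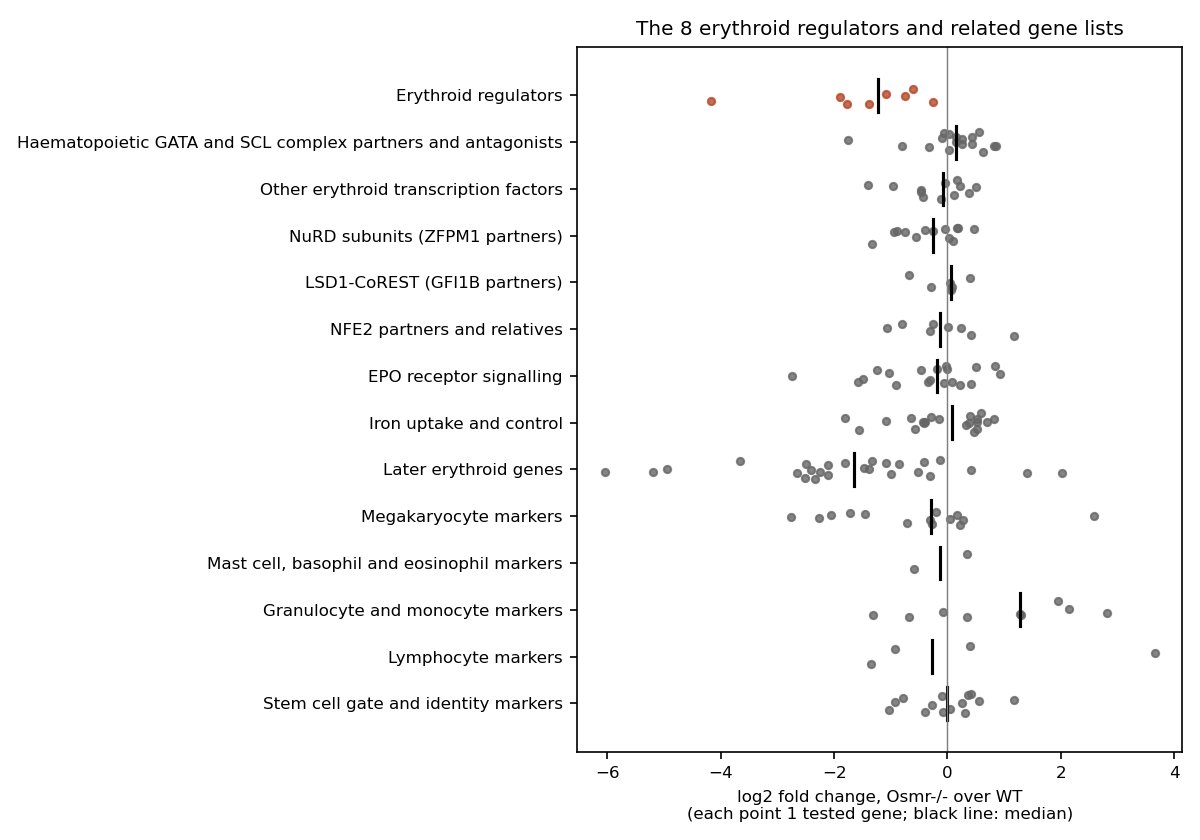
Log2 fold change, Osmr-/- over WT, of the 8 regulators (red) and of the tested genes of each related list (grey), with 1 point per gene, list medians as black lines and vertical scatter added only to part the points. The medians of the regulators (-1.23) and of the later erythroid genes (-1.64) lie left of the other list medians, which run from -0.29 for megakaryocyte markers to 1.29 for granulocyte and monocyte markers.

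Markers of other blood cells were measured beside these, although the sort removed cells with surface CD48 or with the lineage markers of T cells, B cells, myeloid cells and red cells (CD3ε, CD5, B220, CD11b, Gr-1 and TER119). Of 14 tested megakaryocyte markers, 9 lay below 0 and 5 above (median -0.29; -0.80 in numbers 1 to 3, 0.00 in 4 to 6), and their summed level was 9576 to 13700 in Osmr-/- libraries and 8327 to 17864 in WT libraries. Gp5, a platelet glycoprotein gene, had -2.76 (limma adjusted p 0.138) and Selp, which encodes P-selectin, 2.58 (limma adjusted p 0.0967); Gp6 had no reads. Mast cell, basophil and eosinophil markers, whose lineages also use GATA1, passed the filter for 2 of 12 (Cpa3 and Fcer1a) and summed to 166 to 449 in Osmr-/- libraries and 137 to 1138 in WT libraries, with Prss34, Gzmb and Tpsb2 at 0; the median of the 2 was -0.13, and was -1.28 in numbers 1 to 3 and 1.16 in 4 to 6. Granulocyte and monocyte markers had 3 of 9 below 0 and 6 above (median 1.29, with 1.17 in numbers 1 to 3 and 0.05 in 4 to 6). Their sums were 10764 to 33184 in Osmr-/- libraries and 9037 to 17397 in WT libraries. Ms4a3 was at 1.29 and S100a8 at 2.81, and Ctsg had no reads. The 3 below 0 were Mpo at -1.31, Lyz2 at -0.67 and Csf1r at -0.07. Osmr-/- 3, the library with the sum of 33184, had S100a8 at 10780 and S100a9 at 7277 normalised counts, each the highest of its group. Lymphocyte markers had 2 of 4 on each side (median -0.27, with -0.41 in numbers 1 to 3 and -0.18 in 4 to 6). Their sums were 1244 to 2026 in Osmr-/- libraries and 1992 to 8128 in WT libraries. Cd79b was at -0.92 and Cd74 at -1.35, Cd79a at 3.65 and Vpreb1 at 0.39, and Il7r and Rag1 had 0 reads. Cd74 had the highest means of the list, 1063 ± 266 in Osmr-/- cells (SD, n = 5) and 3072 ± 1967 in WT cells (SD, n = 6). The 14 stem cell gate and identity markers were even, with 7 on each side (median -0.01; -0.06 in numbers 1 to 3, 0.27 in 4 to 6) and sums of 23421 to 34593 in Osmr-/- libraries and 22704 to 32008 in WT libraries, with Procr at -0.79 and Thy1 at 1.17. Limma called 0 genes of these 5 lists. At an unadjusted p under 0.05, the markers numbered 1 higher and 2 lower for megakaryocytes, 2 higher and 1 lower for granulocytes and monocytes, 1 higher and 2 lower for lymphocytes and 1 each way for the stem cell list, where 7.5% of all tested genes were higher and 10.5% lower. The authors' deposited table called Selp (adjusted p 6.95e-05) and Thy1 (adjusted p 0.0265) higher and Cd74 (adjusted p 0.00827) lower, where it called 1.67% of its genes higher and 2.79% lower. The part of such cells in the differences of the 8 regulators was not tested.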

How the data were processed

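The submitters' processing notes list, per the labels, trimming (Trimmomatic 0.36.6), checking (FastQC 0.72), alignment to mm10 (HISAT2 2.1.0), counting (HTSeq 0.9.1) and a DESeq2 wrapper (2.11.40.6). No source used here gives the annotation or strand setting. The authors deposited an expression signal, gene counts divided by DESeq2 size factors, and log2 scale values (regularised and variance stabilised). The table of the authors' DESeq2 comparison holds, as deposited, mean signals, log2 fold changes, Wald scores, p-values and adjusted p-values; its fold changes have the sign of WT minus Osmr-/- and were turned.

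Whole reads were recovered from the deposited signal, with 100% of values within 1e-06 of a whole number; the steps of WT 3, WT 5 and several others lie near 1. The floor for a count of 0 (3 reads) covers counting error only, since the PCR reads carry no molecular identifiers and are not independent. The confidence intervals of fold changes come from the spread between libraries, 1 per mouse. Genes that reached a normalised count of 10 in 5 or more libraries were fitted as log2(normalised count + 1) with limma 3.58.1 (eBayes with trend, R 4.3.3) on genotype alone, and p-values were adjusted by Benjamini-Hochberg over 13358 genes at 0.05. Fits were tested on simulated data. Alternatives were pseudocounts, filters, TMM, the authors' log2 values, edgeR 4.0.16, DESeq2 1.42.0 with and without a beta prior, replicate block, number sets and leaving out each library. Positions and lengths came from GENCODE M21 (GRCm38), promoters from RefSeq.

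The regulators, the lists and the number sets were chosen with earlier results of these data known. Named were the 8 regulators, from each list the genes past the threshold and the 2 of lowest p, and the 5 genes most correlated with Gata1 and with Klf1. Other genes, such as Kit, Ly6a, Cd48, Flt3, Gata2, Spi1, Hbb-bt and those listed at or near 0 reads, were named after their values were seen.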

Additional observations from a re-analysis of the deposited data

Results flagged for a closer look

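Of 96 groups of 5 or 6 libraries examined for a single library far from the others, 13 had one. Chance gives about 5% of groups only where values are normal. Nearly all groups here were linear counts, and many of the genes were picked by p or by correlation. The 13 groups are therefore not read as an excess. Among the regulators these were Epor in WT 2, at 191 normalised counts with the next WT library at 91.0, and Tfrc in Osmr-/- 3, at 1000.1 with the next Osmr-/- library at 631. The log2 ratio of Gata1 to Gata2 in Osmr-/- 6 was -6.54, with the next lowest Osmr-/- library at -3.65. Use1 and Dgcr6 were the genes most like Gata1 by Pearson and by Spearman correlation among those named. They were picked for that likeness over the same libraries, so low values in Osmr-/- 6 follow in part from the choice. They had 788 and 166 there, with the next lowest Osmr-/- libraries at 1487 and 316.

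Among the other genes named, Kif23 was high in WT 1 at 808, Myb in WT 6 at 15045, Rhd in Osmr-/- 1 at 39.6 and Procr in Osmr-/- 1 at 549. S100a8 stood out in library 3 of both genotypes, at 10780 in Osmr-/- 3 and 180.3 in WT 3, where the next libraries had 346 and 57.2. Osmr itself was highest in WT 2 at 6.72. The library total of WT 1, 22.1 M reads, stood apart from the next WT library at 13.6 M.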

How the results depend on the processing

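No regulator changed sign under any of the 25 alternatives. Over all genes, limma called 1 higher and 2 lower, with 2401 at an unadjusted p under 0.05. The counts were 13 higher and 42 lower at a pseudocount of 10, 18 and 51 with regularised log values, 17 and 49 with variance stabilised values, 238 and 440 with DESeq2, 230 and 385 with DESeq2 and a beta prior, and 133 and 204 with a covariate for the number sets. At a pseudocount of 0.5 and with edgeR 1 was lower and 1 higher. With no filter (2779 at an unadjusted p under 0.05), a filter at 50 (2122), numbers 1 to 3 only (2933) and numbers 4 to 6 only (1384), limma called 0 in each direction, and edgeR had 2060 and DESeq2 2915 at an unadjusted p under 0.05. Leaving out each library gave 0 to 30 higher and 0 to 92 lower, both highest without WT 6.

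Of the 8 regulators, limma called 1 lower (Klf1) at a pseudocount of 10, with regularised log and with variance stabilised values, DESeq2 4 with or without a beta prior, and the number set covariate 3; leaving out each library gave 0 to 1 (Nfe2, without WT 6). Their median of -1.23 moved to -0.75 with regularised log values, -0.96 with variance stabilised values and -0.93 in numbers 4 to 6.

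The difference of the log2 Gata1 to Gata2 ratio of -1.67 (exact permutation p 0.0498) was -1.48 at a pseudocount of 10 (0.0628), -0.89 with regularised log values (0.0714), -1.04 with variance stabilised values (0.0801), -1.56 in numbers 1 to 3 and -2.24 in numbers 4 to 6. Leaving out each library gave -1.95 to -0.97 (exact permutation p 0.0333 to 0.103). The cause of these changes was not tested.

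The labels name no pairing of the mice. Correlations of same-numbered libraries, after the group means were taken out, were 0.0203 to 0.0986, and 1 of 5 Osmr-/- libraries was most like its own number. For Osmr-/- 1, 2, 3, 5 and 6 the most alike WT libraries were 2, 3, 3, 4 and 4, each in the same number set. These values cannot tell whether the mice were paired. With a replicate block limma called 0 genes in each direction (2418 at an unadjusted p under 0.05), and the Gata1 to Gata2 difference was -1.84 (exact permutation p 0.0625, the smallest its 32 sign changes allow).

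Depth limits Epor in Osmr-/- 1 and 2 (6 and 5 reads), Gata1 in Osmr-/- 6 (13 reads) and Klf1 in Osmr-/- 2 and 3 (0 and 5 reads).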
